A study of Mus musculus with 36 samples.

Results

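RAB and ARL genes, together with both subunits of the enzyme that attaches RAB proteins to membranes, were followed through the PAX6 ChIP-seq peaks of mouse EPCs. The 93 members were defined by their symbol among 22350 protein-coding genes of GENCODE M1 on chromosomes 1 to 19 and X of mm9: Rab or Arl followed directly by a digit, plus Rabggta and Rabggtb. They comprised 58 RAB GTPases, 19 ARL GTPases, 14 proteins that carry the name of the RAB or ARL they bind, and 2 prenyltransferase subunits. The family itself was selected on readout, because peaks of 2 pools overlapped near Arl15 and near Rabggtb, so the peaks of these 2 genes are given as a description and carry no weight for the family.

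RAB proteins are small GTPases that mark membrane compartments and recruit the machinery for vesicle budding, transport and fusion. A newly made RAB is handed by an escort protein (Chm or Chml) to the RAB prenyltransferase (geranylgeranyl transferase), whose alpha subunit is Rabggta and whose beta subunit, Rabggtb, holds the catalytic site. The enzyme adds lipid groups to cysteines at the end of the RAB, and recycling proteins later lift the RAB off the membrane for another cycle. ARL proteins are relatives of the ARF GTPases and work mostly at the Golgi, at lysosomes and in cilia, without this lipid.

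Chromatin came from primary NLBs, the aggregates in which EPCs grow, cultured from the ganglionic gut of CD1 mice at postnatal day 7 with EGF, basic FGF and GDNF in the medium, conditions that all groups shared. It was immunoprecipitated with an anti-PAX6 antibody (16 libraries: 4 in pool 1, 6 in pool 2 and 6 in pool 3) or with mouse IgG (4 libraries, which carry the label of pool 1), and 16 input libraries were kept without antibody. Pools 2 and 3 have no IgG libraries by these labels, so antibody and pool cannot be told apart where their peaks are set beside IgG. The authors merged the libraries of a pool before they called peaks, so each pool is 1 list, IgG is 1 list, and the spread between libraries is unknown. A peak list holds no expression values, so neither the makeup of the cultures nor the expression of any gene was checked here. With 3 PAX6 lists against 1 IgG list, no ranking of the lists can reach a one-sided p below 0.25, and the comparisons below are therefore counts and values without a test.

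On these chromosomes pool 1 had 489 peaks, pool 2 had 1018, pool 3 had 712 and the IgG list had 1006. Each peak has a score, the MACS p-value as a negative log10 multiplied by 10, with a median of 62.05, 68.98, 105.445 and 65.59 in that order. The score grows with depth, which the lists do not give, so scores were ranked only within a list. A peak was assigned to every gene whose body, or the 100 kb on either side of it, held the centre of the peak.

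Some of the sequences under the peaks are shown as examples of the repeats found there, picked after their values were seen. They are the part common to pools 2 and 3 upstream of Rabggtb (chr3:153584853-153585035), the peak of pool 3 in an intron of Arl15 (chr13:114648586-114648805) and the 300 bp around the centre of the pool 2 peak in an intron of Rab3c (chr13:110898867-110899166), all from the plus strand of mm9. Capitals mark every second copy of a 34-base unit in the first sequence, the longest uninterrupted TG repeat in the Arl15 intron and the run of a 4-base unit in Rab3c.
Rabggtb upstream, pools 2 and 3: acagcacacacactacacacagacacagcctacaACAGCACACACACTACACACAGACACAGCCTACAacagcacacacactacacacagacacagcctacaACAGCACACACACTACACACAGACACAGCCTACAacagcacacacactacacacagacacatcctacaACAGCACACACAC
Arl15 intron, pool 3: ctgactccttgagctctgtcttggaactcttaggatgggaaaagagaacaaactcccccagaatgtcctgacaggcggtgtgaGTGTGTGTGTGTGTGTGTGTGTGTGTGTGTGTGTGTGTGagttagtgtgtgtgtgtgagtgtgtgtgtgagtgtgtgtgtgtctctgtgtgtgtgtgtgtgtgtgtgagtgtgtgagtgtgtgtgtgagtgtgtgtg
Rab3c intron, pool 2: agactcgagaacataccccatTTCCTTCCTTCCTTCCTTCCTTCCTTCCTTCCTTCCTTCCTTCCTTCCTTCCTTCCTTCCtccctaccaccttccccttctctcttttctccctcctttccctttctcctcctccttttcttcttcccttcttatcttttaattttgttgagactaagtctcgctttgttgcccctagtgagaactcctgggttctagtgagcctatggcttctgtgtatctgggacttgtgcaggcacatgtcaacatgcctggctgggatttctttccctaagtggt

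These 3 examples hold repeats of different kinds, while 11 of the 22 PAX6 peaks of the family held no run of a short unit of at least 20 bp, as defined below. The stretch upstream of Rabggtb is a tandem repeat with a period of 34 bases, and shifted by that period it matched itself at 99.3% of positions, against 54.1% at a shift of 2 bases. The Arl15 intron peak held an uninterrupted TG run of 39 bp and the Rab3c peak a run of 60 bp of a 4-base unit.

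Of the prenyltransferase genes, Rabggtb had peaks of 2 pools and Rabggta had no peak in any list. Transcribed from the minus strand, Rabggtb covers 5.68 kb of chromosome 3 (153570253 to 153575930). In pool 2 a peak of 260 bp, centred 8975 bp before the nearest Rabggtb start site, had a score of 99.69, rank 117 of 1032, which it shared with 34 other peaks of that list (35 in all). In pool 3 the peak was 439 bp wide, was centred 9142 bp before it and had a score of 97.1, rank 383 of 724. Within its list the first therefore stood at percentile 85.4 and the other at 47.1, the percentage of peaks of that list with a lower score. The peaks shared 183 bp, which is 70.4% of the peak of pool 2 and 41.7% of that of pool 3. Pool 1 and IgG had no peak within 100 kb of the gene. Rabggtb was the protein-coding gene with the nearest start site, and 4 other protein-coding genes had the region in their 100 kb windows. The study lists the region under Acadm as well as under Rabggtb. For motif 1 the best match in the shared part had 12 of 30 mismatches, over the limit of 6, and for motif 2 it had 2 of 14, which is at the limit.

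Of the 19 ARL GTPases, Arl15 had 3 PAX6 peaks and Arl3 had 1, and of the proteins named after an ARL only Arl6ip4 had one. With the peaks of each chromosome spread evenly along it, the windows of the 19 predicted 3.48 genes with a PAX6 peak, against 2 observed. Arl15, which has been linked in human to adiponectin levels and magnesium transport, is transcribed from the plus strand of chromosome 13 (114584713 to 114947669) and with 363 kb is the longest of the 93 genes. Upstream of it, the peak of pool 2 had a score of 66.57 (rank 677 of 1032) with its centre 4634 bp before the nearest start site. That of pool 3 had a score of 202.49 (rank 43 of 724, the same score in 9 peaks) with its centre 4772 bp before it. They shared 228 bp, or 47.8% of the pool 2 peak and 89.8% of the pool 3 peak. Pool 3 placed its higher peak, with a score of 214.8 and rank 39, inside the gene, in an intron 63.9 kb past the nearest start site, where no other list had a peak. Arl15 was the only protein-coding gene with these 3 peaks in its 100 kb window, and neither pool 1 nor IgG had a peak there. The pool 3 peaks of Arl15 stood at percentiles 93 and 94.6 of their list, and the pool 2 peak at 34.4.

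**Figure D1:**
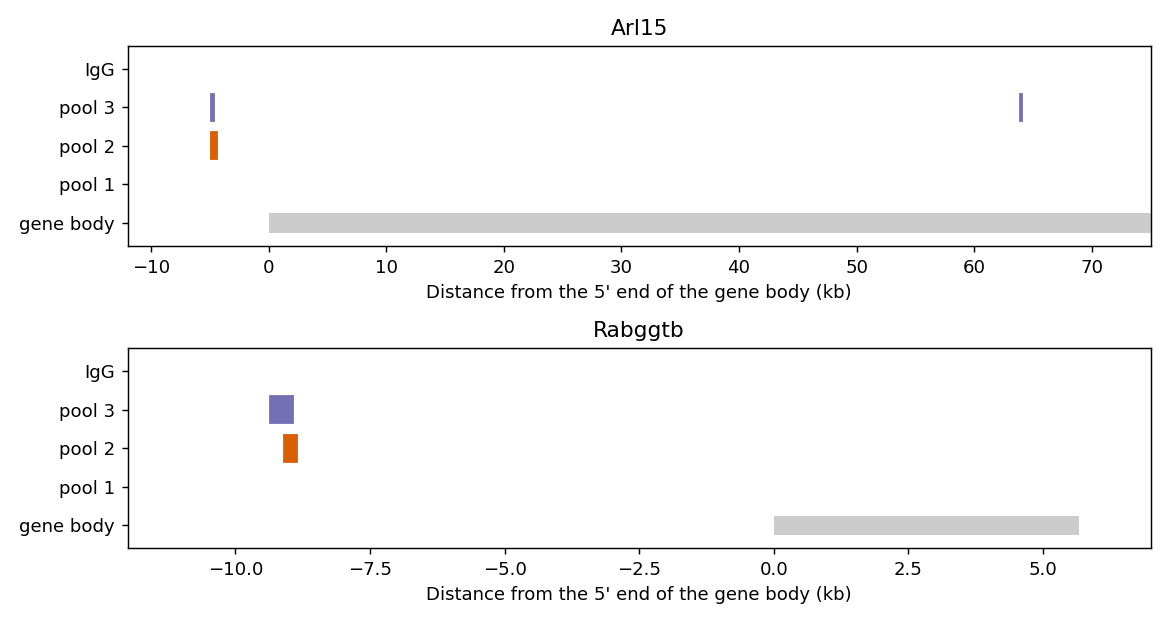
Peaks (coloured bars, 1 row per list) and gene bodies (grey) at Arl15 (upper panel, the first part of the body) and Rabggtb (lower panel), with the distance from the 5' end of the gene body in kb on the horizontal axis, positive in the direction of transcription. Peaks of pools 2 and 3 overlap upstream of both genes, a further peak of pool 3 lies in Arl15, and the rows of pool 1 and IgG are empty.

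Arl3, a GTPase that releases lipid-bound cargo in cilia, had a peak of pool 1 with a score of 57.16 (rank 358 of 491), 53.7 kb upstream. That peak lay in the body of D19Wsu162e, 3.36 kb from its start. Near Arl6ip4 the peak of pool 1 had a score of 52.54 (rank 437 of 491), 65.3 kb downstream of the gene and 1.65 kb from the start of Pitpnm2, in whose body it lay. Arl4c had only an IgG peak, with a score of 61.81, 86.4 kb upstream. The remaining ARL GTPases, among them Arl1 of the Golgi, Arl8a and Arl8b of lysosomes, and Arl6 and Arl13b of cilia, had no peak in any list.

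RAB genes with a PAX6 peak numbered 11 of 58, close to the 10.4 that even spread predicted, and only Rab17 among them had peaks of 2 pools. Those with a peak in the gene body or within 10 kb of it were Rab12, Rab17, Rab31, Rab37 and Rab3c. Rab17, which works in transport through polarised epithelia, had a peak of pool 3 in an intron, 2.89 kb past the nearest start site, with a score of 138.11 (rank 158 of 724, the same score in 29 peaks). The peak of pool 2 at Rab17 lay 88.2 kb downstream of the gene, had a score of 63.82 (rank 757 of 1032) and was nearer to Col6a3, a collagen gene, whose start was 26.0 kb away. These peaks lie apart and do not overlap, and an IgG peak with a score of 69.13 lay 80.2 kb upstream of Rab17, in the body of Lrrfip1.

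Rab31, a RAB of the Golgi and early endosomes, had a peak of pool 3 in an intron 2.18 kb past the nearest start site, with a score of 62.39 (rank 563 of 724). The peak of pool 2 at Rab12, a RAB of recycling endosomes, lay 5.06 kb upstream of the gene with a score of 68.17 (rank 618 of 1032). Rab3c, a RAB of synaptic vesicles, had a peak of pool 2 with the same score and rank (4 peaks share them) in an intron, 171 kb past its nearest start site. By start site that peak was nearer to Pde4d, the gene of a cyclic AMP phosphodiesterase, at 155 kb. Rab37, a RAB of secretory granules, had a peak of pool 1 with a score of 59.25 (rank 298 of 491), 5.71 kb upstream of the gene, and 10 other protein-coding genes had it in their windows. Each of these 4 genes had a peak in 1 pool only.

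The other 6 RAB genes with a PAX6 peak had it over 10 kb from the gene. Rab10, which takes part in the delivery of vesicles to the plasma membrane, had a pair of pool 3 peaks, one 11.1 kb upstream with a score of 85.43 and one 80.0 kb downstream with a score of 92.47. By start site the downstream peak was nearer to 1700012B15Rik, at 69.2 kb. The peak of pool 3 upstream of Rab4a, a RAB of fast endosomal recycling, lay 45.4 kb away and had a score of 180.6 (rank 62 of 724). Rab4a had the nearest start site, but the peak lay in the body of Gm20388. Rab19 had a peak of pool 2 60 kb downstream (score 78.01), which was nearer to Dennd2a, a gene of the DENN family of RAB activators, at 20.0 kb. Near Rab39 a peak of pool 2 lay 79.9 kb upstream (score 71.13) and was nearer to Slc35f2, at 25.1 kb. Near Rab33a a peak of pool 1 lay 52.4 kb downstream (score 67.66), in the body of Zfp280c. Rab44 had a peak of pool 2 with a score of 50.82 (rank 1021 of 1032), 42.4 kb downstream in the body of Cpne5. That peak overlapped an IgG peak with a score of 82.2. Of the 22 PAX6 peaks around the family it alone did so (4.55%), against 82 of all 2219 PAX6 peaks (3.7%). Rab44 had 3 IgG peaks in all.

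**Figure D2:**
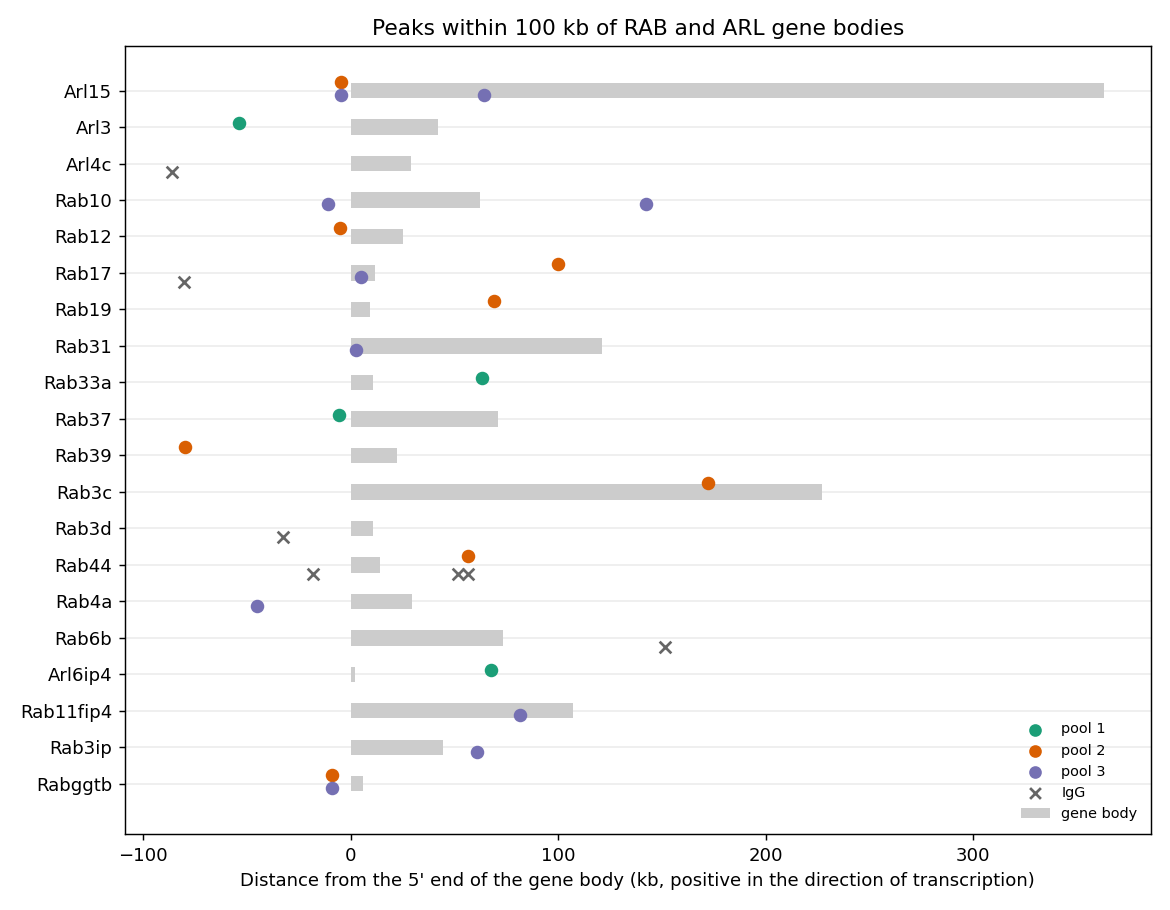
Peaks within 100 kb of the bodies of the 20 members that had a peak in any list, with the distance from the 5' end of the gene body in kb on the horizontal axis and 1 row per gene (points shifted slightly up or down by list). Circles are PAX6 peaks of pools 1, 2 and 3, crosses are IgG peaks and grey bars are gene bodies. Distances in the text run to the nearest annotated start site, which for Rab11fip4, for example, is not the 5' end of the body.

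Of the 14 binding proteins, 3 had a PAX6 peak, close to the 2.64 that even spread predicted. Rab11fip4, an effector of RAB11 on recycling endosomes, had a peak of pool 3 in an intron, 12 kb from the nearest start site, with a score of 159.13 (rank 90 of 724, the same score in 32 peaks). Rab3ip, the Rabin8 exchange factor that activates RAB8 in cilium formation, had a peak of pool 3 16.3 kb downstream of the gene with a score of 61.15 (rank 576 of 724), in the body of Gm239. The other was Arl6ip4.

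The members without any peak, 73 of 93, include the best known RABs of endocytosis and secretion. Most protein-coding genes lacked a peak too, as 17.5% had a PAX6 peak and 8.63% an IgG peak, so an absence does not set these members apart. Rab5a, Rab5b and Rab5c of early endosomes, Rab7 of late endosomes, Rab11a and Rab11b of recycling endosomes, and Rab27a and Rab27b of secretory vesicles had 0 peaks in the 4 lists. Of the Rab3 genes, which act in regulated secretion, Rab3c had its PAX6 peak, Rab3d an IgG peak 32.9 kb upstream (score 82.57), and Rab3a and Rab3b had none. The 3 members with IgG peaks alone were Arl4c, Rab3d and Rab6b, a neuronal RAB of the Golgi whose IgG peak lay 78.5 kb downstream (score 68.75). Nearest outside the limit were peaks of pools 2 and 3 at 101 kb from Rab20, with scores of 77.71 and 77.53, and a peak of pool 3 at 106 kb from Arl6ip4 with a score of 175.6. The study lists the region near Rab20 under Col4a2. The farthest PAX6 peak inside the limit was that of pool 2 near Rab17 at 88.2 kb.

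Over the whole family the number of genes with a peak was close to that of other genes. Pool 1 had a peak for 4 of 93 members (4.30%) against 4.25% of all protein-coding genes, pool 2 for 8 members (8.60%) against 8.08%, pool 3 for 8 members (8.60%) against 6.84% and IgG for 5 members (5.38%) against 8.63%. For any PAX6 pool the count was 17 of 93, or 18.3% (exact Clopper-Pearson 95% interval 11 to 27.6, counting error only), against 17.5% of all genes. Because long genes collect more peaks, the count that the length of each window predicts was also computed, with the peaks of a chromosome spread evenly along it. For the members this gave 16.8 genes with a PAX6 peak and 8.16 with an IgG peak, so the observed 17 was at the value predicted from length and the observed 5 for IgG below it. Peaks of at least 2 pools were near 3 members (Arl15, Rab17 and Rabggtb), or 3.23%, against 1.56% of all genes and 1.15 members by length. Without Arl15 and Rabggtb, whose peaks led to the choice, 15 of 91 members (16.5%) had a PAX6 peak and 1 had peaks of 2 pools (1.05 by length). Pools 2 and 3 then each had a peak for 6 of 91 (6.59%), against 8.08% and 6.84% of all genes. Length predicted 7.82 and 5.67 members for these pools.

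**Figure D3:**
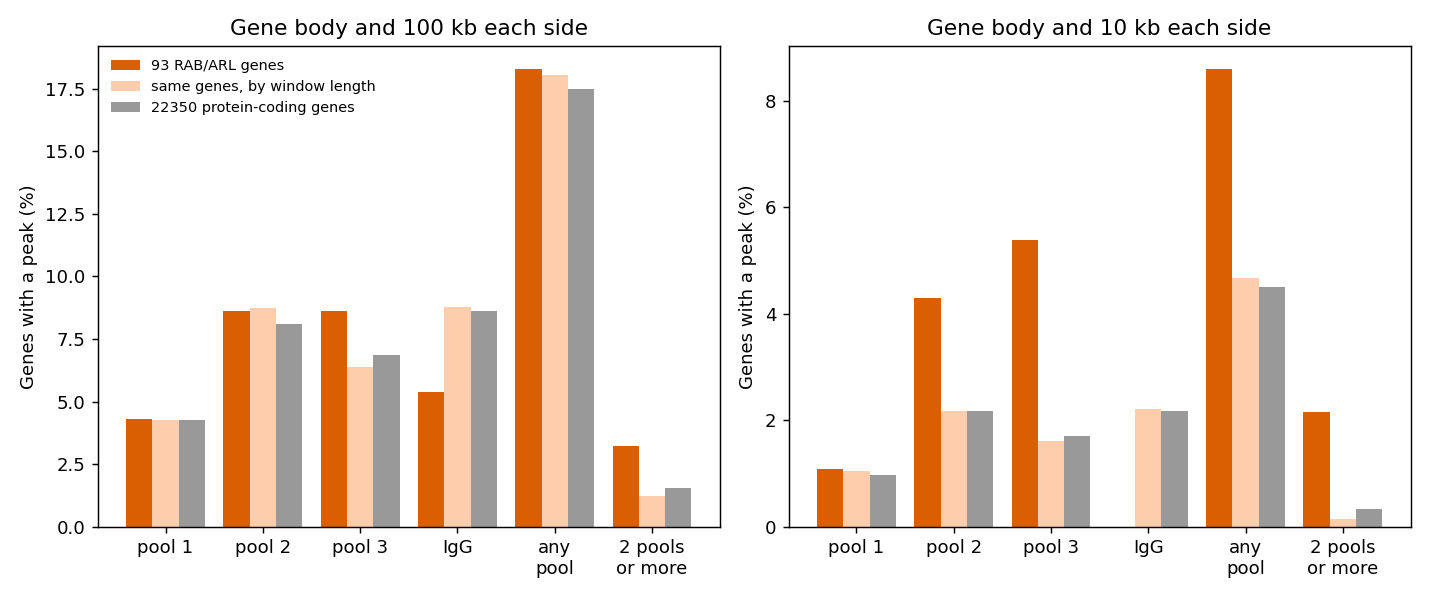
Percentage of genes with a peak in the body or within 100 kb of it (left) and within 10 kb of it (right), for each list, for any PAX6 pool and for 2 or more pools. Orange bars are the 93 members, pale bars the members' value predicted from window length, grey bars all 22350 protein-coding genes. On the left the members reach 18.3% for any pool against 17.5% of all genes, and on the right 8.60% against 4.5%, which becomes 6.59% without Arl15 and Rabggtb, the genes chosen for their peaks.

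Closer to the genes the family held more PAX6 peaks than its length predicted, and Arl15 and Rabggtb supplied much of the surplus. In the gene body or within 10 kb of it, 6 of 91 members other than Arl15 and Rabggtb (6.59%) had a PAX6 peak, against 4 by length and 4.5% of all genes. With these 2 genes the count was 8 of 93 (8.60%, exact 95% interval 3.79 to 16.2). By list it was 1 member in pool 1 (0.966% of all genes), 4 in pool 2 (2.17%) and 5 in pool 3 (1.71%). Without them, pool 1 had 1 of 91 (1.1%, 0.882 by length), pool 2 had 2 (2.2%, 1.86) and pool 3 had 3 (3.3%, 1.34). IgG had 0 of 93 there, which allows a share of up to 3.23% (3 counts of 93; the exact 95% upper limit is 3.89%), against 2.18% of all genes. Peaks of 2 pools were there only for Arl15 and Rabggtb, for which these genes were chosen, and for 0 of the other 91 members (0.0856 by length), with 0.322% of all genes as the background. In peaks, the 5.26 Mb of these narrower windows held 11 PAX6 peaks where even spread predicted 4.55, a ratio of 2.42, and the 21.9 Mb of the 100 kb windows held 22 where it predicted 18.6, a ratio of 1.18. With Arl15 and Rabggtb left out, the narrow windows held 6 peaks against 4.13 (ratio 1.45) and the wide ones 17 against 17.8 (ratio 0.954). Of the 22 PAX6 peaks 5 lay in an intron of a member, 10 upstream and 7 downstream, and 0 lay in an exon of one. The upstream peaks of Arl15 and Rabggtb and the Arl15 intron peak are among these, and both genes were chosen for their peaks. The same split over all peaks was not computed, so these counts describe the members alone.

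Pool 3 gave 10 of the 22 PAX6 peaks where even spread predicted 6.12, pool 2 gave 8 against 8.47 and pool 1 gave 4 against 4.01, while IgG gave 7 against 8.51. Without Arl15 and Rabggtb, pool 3 gave 7 against 5.84 and pool 2 gave 6 against 8.14. In introns of members, 4 of the 5 peaks came from pool 3 (Arl15, Rab11fip4, Rab17 and Rab31), and 5 members had a PAX6 peak in the body, 5.38% against 3.11% of all genes. Arl15, chosen for its peaks, is 1 of these 5. The member was the protein-coding gene with the nearest start site for 8 of 10 peaks in pool 3, 3 of 8 in pool 2, 1 of 4 in pool 1 and 2 of 7 for IgG. The counts of pools 2 and 3 include every peak of Arl15 and Rabggtb, each with its own gene nearest, so they partly follow from the choice of these genes. The same share around other genes was not computed, so the difference between pools has no background here. For the other 3 peaks of pool 1 in these windows another gene had the nearest start site.

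Long bodies were few in the family. Bodies over 100 kb belonged to 5 members (Arl15, Rab11fip4, Rab27b, Rab31 and Rab3c), of which 4 had a PAX6 peak (80%) and 0 an IgG peak, while Rab27b had neither. Among all 2399 protein-coding genes of that length 31.1% had a PAX6 peak and 16.3% an IgG peak, and the windows of the 5 members predicted 1.5 genes with a PAX6 peak. Arl15, which was chosen for its peaks, is 1 of the 4. Of the 88 shorter members 13 had a PAX6 peak (14.8%) against 15.9% of all shorter genes. The length limit was chosen after the values were seen. The median body was 23.2 kb for the members and 15.4 kb for all protein-coding genes.

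The family's peaks did not include the highest scores of any list. In pool 3 the 10 peaks ran from 61.15 at Rab3ip to 214.8 at Arl15 with a median of 117.605, against 105.445 for the whole list. Among these are the peaks of Arl15 (202.49 and 214.8) and Rabggtb (97.1), the genes chosen for their peaks. The others were at 61.15, 62.39, 85.43, 92.47, 138.11, 159.13 and 180.6, and their middle value of 92.47 lay below 105.445. The 8 peaks of pool 2 ran from 50.82 at Rab44 to 99.69 at Rabggtb with a median of 68.17 against 68.98, and the 4 peaks of pool 1 from 52.54 at Arl6ip4 to 67.66 at Rab33a with a median of 58.205 against 62.05. The 7 IgG peaks ran from 61.81 to 86.09, with a median of 82.2 against 65.59. The 5 peaks of pool 3 above its median were those at Arl15 (both), Rab4a, Rab11fip4 and Rab17.

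**Figure D4:**
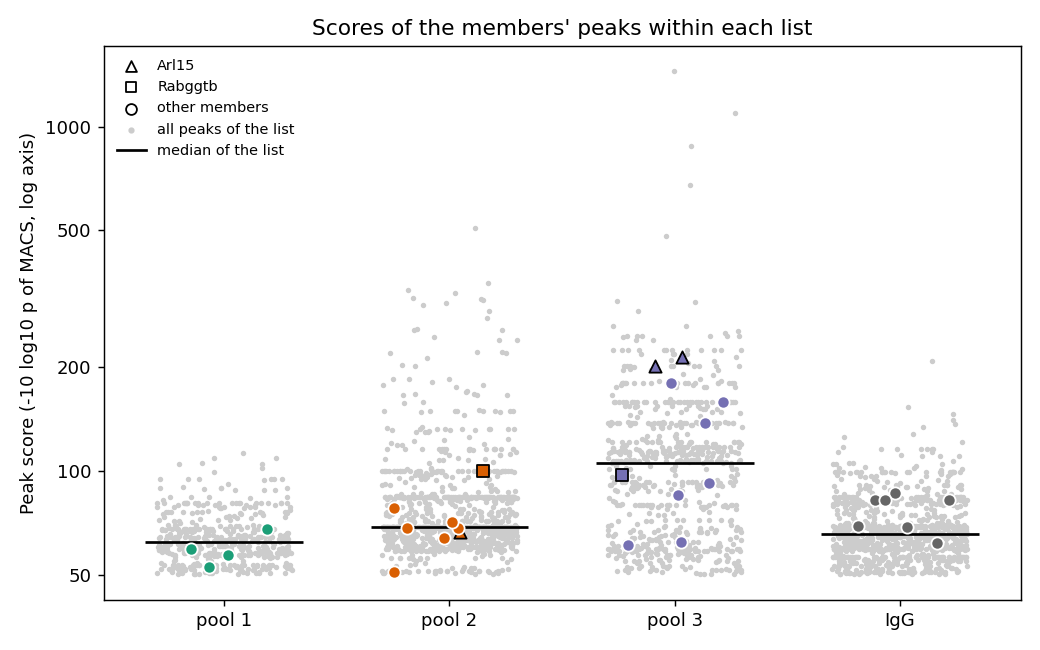
Score of every peak (the negative log10 of the MACS p-value multiplied by 10, logarithmic vertical axis) in each list, with all peaks in grey, the median of the list as a black line and the peaks around the members as coloured symbols (triangles Arl15, squares Rabggtb, circles other members). In pool 3 both Arl15 peaks lie above 200 and Rabggtb below the median of 105.445, and in pool 2 Rabggtb is the highest of the family at 99.69.

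Most of the family's peaks held the CA and TG rich motifs that the study derived from its PAX6 regions, as did most peaks of every list. The regions behind motif 1 include the one upstream of Arl15, and those behind motif 2 the ones upstream of Arl15 and Rabggtb. Matches in these regions therefore carry no weight for the family, and the shares below include them. In the 300 bp around the centre, motif 1 of the study (30 bases, up to 6 mismatches, both strands) was in 14 of 22 PAX6 peaks of the family (63.6%, exact 95% interval 40.7 to 82.8), against 71.2% of all PAX6 peaks, 85.3% of all IgG peaks and 5.50% of the 72646 consecutive tiles of 300 bp in the members' windows. Motif 2 (14 bases, up to 2 mismatches, overlapping in sequence with motif 1) was in 17 of 22 (77.3%, 54.6 to 92.2), against 73.2%, 88.1% and 8.66%. An uninterrupted CA or TG run of at least 20 bp was in 8 of 22 (36.4%), against 48.3%, 53.8% and 3.16%, and the longest, 47 bp, lay in the pool 2 peak downstream of Rab17. A run of at least 20 bp of any unit of 1 to 6 bases, with at least 6 copies of the unit, was in 11 of 22 (50.0%), against 63.5%, 61.2% and 8.30%. How reads from repeats were placed on the genome was not tested.

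Motif 1 was in 9 of 10 members' peaks of pool 3, 4 of 8 of pool 2, 1 of 4 of pool 1 and 6 of 7 of IgG, where all peaks of these lists held it in 78.4%, 68.8%, 65.8% and 85.3%. Rabggtb was the exception in pool 3, with 11 mismatches in the 300 bp around the centre. Peaks with neither motif were those near Arl3, Rab19, Rab33a, Rab39 and Rab3c. Some of these held repeats of other units, a run of 48 bp of a 6-base unit near Rab39, of 32 bp of a 4-base unit near Arl3 and of 60 bp at Rab3c. Near Rab33a and Rab19 no run of at least 20 bp and 6 copies was found. The core TTCACGC of the sequence that the PAX6 paired domain binds in vitro, searched on both strands, was in 0 of 22 PAX6 peaks of the family, which allows a share of up to 13.6% (3 counts of 22; the exact 95% upper limit is 15.4%), against 0.361% of all PAX6 peaks, 0.795% of IgG peaks and 0.585% of the tiles. At such shares a difference was not detectable with 22 peaks. The IgG peak 18.4 kb upstream of Rab44 held it.

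**Figure D5:**
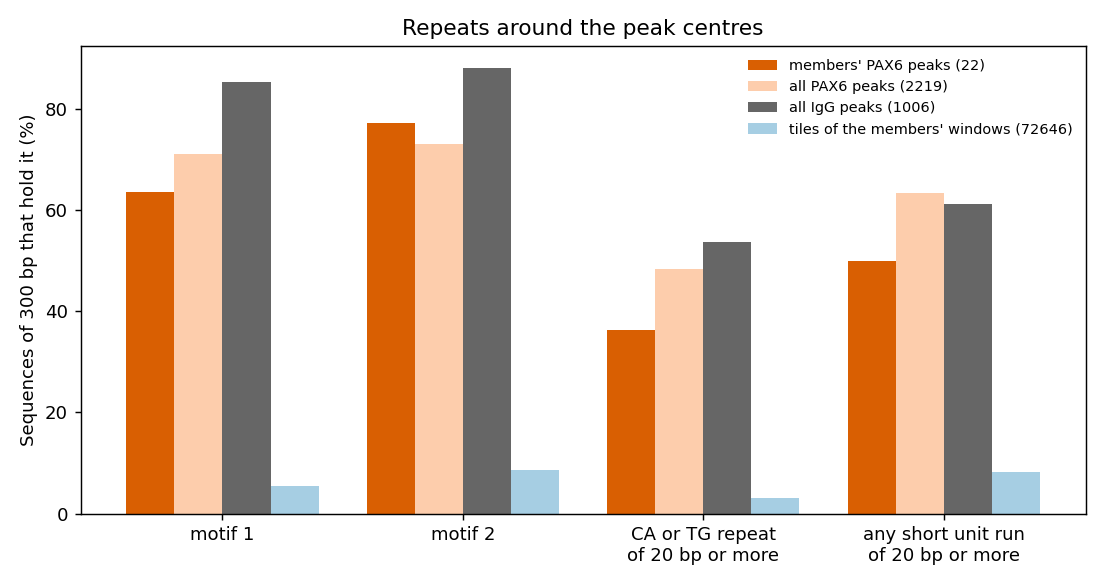
Percentage of 300 bp sequences (vertical axis) that hold motif 1, motif 2, a CA or TG run of at least 20 bp or a run of any unit of 1 to 6 bases of at least 20 bp and 6 copies, for the members' PAX6 peaks, all PAX6 peaks, all IgG peaks and the tiles of the members' windows. Motif 1 runs from 5.50% of tiles to 85.3% of IgG peaks, with the members' peaks at 63.6%.

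Genes that work with the RABs were listed as 4 groups and counted in the same way. Of 14 genes for prenylation and RAB recycling, 2 had a PAX6 peak (2.28 by length): Pggt1b, the beta subunit of type I geranylgeranyl transferase, with a peak of pool 2 27.8 kb downstream (score 66.94), and Fdps, which makes the isoprenoid precursor, with a peak of pool 3 52.5 kb upstream (score 89.85). The escort genes Chm and Chml had no peak. Fnta and Fntb, the farnesyltransferase subunits, had an IgG peak each. No gene of this list had peaks of 2 pools, where length predicted 0.137 genes. Rabggtb had them but was chosen for that, so the difference carries no weight.

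Of 64 RAB activators and inactivators, 14 (21.9%) had a PAX6 peak against 13.6 by length. Ccz1, which with Mon1 proteins activates RAB7, and Tbc1d16, of the TBC family of RAB inactivators, had peaks of pools 2 and 3. Length predicted 1.18 genes of this list with peaks of at least 2 pools. At Ccz1 both peaks, with scores of 91.57 and 121.38 about 17 kb upstream of the gene (17.0 and 16.8 kb), overlapped an IgG peak. At Tbc1d16 they lay on opposite sides of the gene, 25.4 kb downstream and 87.8 kb upstream. Sbf2, an exchange factor also linked to neuropathy in human, had a peak of pool 3 in an intron (score 59.26). Tbc1d23 and Dennd3 had a peak of pool 3 at 10.4 kb (score 105.41) and 16.5 kb (score 60.51) upstream.

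RAB effectors had a PAX6 peak in 5 of 43 genes (11.6%, 9.01 by length) and an IgG peak in 7 (4.59 by length). Myrip, which ties RAB27 vesicles to myosin, had peaks of all 3 pools at different places, in introns for pools 1 and 3 and 1.51 kb downstream for pool 2, and that of pool 1 overlapped one of its 3 IgG peaks. Mlph, the RAB27 effector of pigment granules, lies beside Rab17 and had the same peaks of pools 2 and 3 in its window. These 2 effectors were the only ones with peaks of at least 2 pools, against 0.774 by length. Sytl2, also a RAB27 effector and named here after its value was seen, had a peak of pool 2 with a score of 316.75 (rank 6 of 1032) 34.0 kb upstream.

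The ARF and SAR GTPases, relatives of the ARL proteins, had a PAX6 peak in 5 of 10 genes against 1.76 by length, and an IgG peak in 0 of 10 against 0.774 by length. Arf5 had a peak of pool 2 in an intron 0.463 kb from the start site (score 62.24, rank 809 of 1032) and a peak of pool 1 44.3 kb downstream (score 56.68). The others were Arf1, 91.9 kb from a peak of pool 3 (score 138.94), Arf6 with a pair of pool 2 peaks 29.3 and 35.9 kb downstream, Arfrp1 with a peak of pool 3 62.7 kb upstream (score 199.95) and Trim23 with one 19.1 kb downstream (score 51.46). Of these 5 genes, 4 had peaks of 1 pool and Arf5 had peaks of 2, where length predicted 0.107 genes with peaks of at least 2 pools.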

How the data were processed

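Per the labels and the methods of the study, the authors aligned reads to mm9 with Bowtie, merged the libraries of each pool and called peaks with MACS. No version is given in the sources used here. In the deposited lists a score is the authors' MACS p-value as a negative log10 multiplied by 10, with no read counts, so depth and its precision are unknown. The methods describe the removal of IgG-overlapping peaks, but the lists still held them, and they were kept here unless stated.

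Here, peak centres were assigned to protein-coding genes of GENCODE M1 (NCBIM37, which is mm9) in Python 3.11.15 with numpy 2.4.6, scipy 1.17.1 and matplotlib 3.10.9. Peaks on unplaced sequences were left out. The count predicted by length is exact: 1 minus the chance that no peak of the chromosome, spread evenly, falls in the window, summed over genes. Peaks per window were compared with the window's share of each chromosome. Overlaps needed at least 1 bp. The assignment was tested on simulated data. Named genes were Rabggta, Rabggtb, Arl15, every member with a PAX6 peak and, of the 4 pathway lists, genes with peaks of 2 pools and examples; the IgG-only members and other examples without a peak were named as well. Of the listed genes, Ric1 was not matched. Some sequences and genes are not reported here. The members, lists and limits were chosen with earlier results of these data known. Alternatives covered distance, overlap, IgG-overlapping peaks, score limits, nearest gene, gene types, each pool left out, motif mismatches, the sequence searched, the length base and, added after the data were seen, Arl15 and Rabggtb left out and unknown bases left out of the length base.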

Additional observations from a re-analysis of the deposited data

How the results depend on the processing

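Counts of members with a peak followed the distance and score limits. With 50 kb in place of 100 kb pool 1 had 1 (2.51% of all genes), pool 2 had 5 (4.71%), pool 3 had 8 (4.01%) and IgG had 2 (5.02%), and with 10 kb they were 1, 4 and 5 in pools 1, 2 and 3, 0 for IgG and 8 for any pool. With the gene body alone they were 0, 1 and 4 in pools 1, 2 and 3, 0 for IgG, 5 for any pool and 0 for 2 pools (0.667%, 1.53%, 1.19%, 1.6%, 3.11% and 0.242% of all genes). At a score of at least 70 pool 1 had 0, pool 2 had 3 and IgG had 2, with 8 for any pool and 1 for 2 pools, and at 100 they were 0, 0 and 4 in pools 1, 2 and 3, 0 for IgG, 4 for any pool and 0 for 2 pools. A fixed score takes a different part of each list (median 62.05 in pool 1, 105.445 in pool 3). These counts therefore cannot be compared between lists, and no share of all genes stands beside them. With each peak given to the nearest start site at any distance, beyond 100 kb too, pool 1 had 1 (2.04% of all genes), pool 2 had 3 (4.07%), IgG had 3 (4%) and any pool 10 (7.95%). With each pool left out in turn, 12 to 13 members had a PAX6 peak and 0 to 3 had peaks of 2 pools, 0 without pool 2 or without pool 3, since all 3 such genes rest on these pools. The share of all genes with a pool left out is not given, so these counts describe the members alone. Leaving out Arl15 and Rabggtb, an alternative chosen after the data were seen, left 1 member with peaks of 2 pools. All other values printed in this paragraph were computed with these 2 genes in the family. The ratio of observed to predicted PAX6 peaks was 2.42 at 10 kb, and that of IgG was 0 at 10 kb and in gene bodies. Under the stricter overlap, 50% of each peak, 0 of the 2 regions shared near members were left, against 16 of the 25 pairs over all peaks. The other 52 values moved less, the counts among them by no more than 1.5 times. The causes were not tested. No paired analysis was possible because the libraries of a pool were merged before peaks were called.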
